A study of Mus musculus with 6 samples.

Results

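The C/EBP transcription factors and their relative Ddit3 were examined in cultured cancer-associated fibroblasts (CAFs) after Stat3 was silenced. The set holds 6 genes, Cebpa, Cebpb, Cebpd, Cebpg, Cebpz and Ddit3, chosen by symbol. All 6 were among the 24015 symbols of the count table, and all 6 were among the 13284 genes that passed the filter on low counts. RNA was sequenced from 3 samples that received nanoparticles with anti-Stat3 siRNA and 3 that received control siRNA nanoparticles, both at 1 ug/mL for 72 hours. All 6 samples were primary fibroblasts from mammary tumours of NeuT transgenic mice with a BalbC strain background. In this model an activated form of rat neu is expressed in the mammary gland and drives the tumours. The labels do not give the number of mice or of separate cultures.

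C/EBP proteins bind DNA as dimers through a basic region and a leucine zipper, and different members can pair with each other. C/EBP-beta and C/EBP-delta act in inflammation and the acute phase response and early in the formation of fat cells, and Cebpd is known as a gene that STAT3 switches on in response to IL-6. C/EBP-alpha acts later in fat cell formation and in myeloid cells. C/EBP-gamma lacks a strong activation domain and works mainly as a dimer partner, also of ATF4. Ddit3 encodes CHOP, a member made during endoplasmic reticulum and amino acid stress that keeps its partners from most classical C/EBP sites. Cebpz bears the family name but has no leucine zipper, and its yeast relative Noc1 acts in ribosome assembly in the nucleolus.

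RefSeq promoter sequences (build GRCm38.p6, 250 bases before to 50 after the gene's start) were matched for 4 of the 6 members, Cebpa, Cebpb, Cebpg and Ddit3. Not matched were Cebpd and Cebpz. Those of Cebpb and Ddit3 are shown because, among the 4, these genes had the largest mean changes over the pairs, in opposite directions. In Cebpb (chr2:167688665-167688964, plus strand) capitals mark TGACG, the core of the cAMP response element, on either strand, and TATAAA. In Ddit3 (chr10:127290543-127290842, plus strand) they mark TGANTCA, the AP-1 motif, and CCAAT on either strand.
Cebpb: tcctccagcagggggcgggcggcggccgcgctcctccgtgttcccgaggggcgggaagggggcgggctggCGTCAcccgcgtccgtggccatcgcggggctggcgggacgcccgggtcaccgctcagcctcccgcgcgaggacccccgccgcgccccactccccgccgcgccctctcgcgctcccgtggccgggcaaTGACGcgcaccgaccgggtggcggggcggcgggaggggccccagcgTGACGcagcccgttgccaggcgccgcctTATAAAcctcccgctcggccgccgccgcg
Ddit3: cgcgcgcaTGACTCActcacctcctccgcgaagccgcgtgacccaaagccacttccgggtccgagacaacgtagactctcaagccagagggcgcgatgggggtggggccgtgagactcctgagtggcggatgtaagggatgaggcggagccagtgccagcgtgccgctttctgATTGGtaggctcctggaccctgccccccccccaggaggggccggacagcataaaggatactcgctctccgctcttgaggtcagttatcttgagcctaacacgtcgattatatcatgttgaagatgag
The TGACG core occurred 3 times in the Cebpb promoter, with first bases at -180, -53 and -7 from the start, and did not occur in the other matched members. At least 1 match was present in 20.8% of all 32851 promoters of this length. The TATAAA marked in the Cebpb promoter had its first base at 22, after the annotated start, and this motif was present in 13.6% of all promoters. The AP-1 motif occurred once in the Ddit3 promoter, at -242, and in 7.81% of all promoters, and CCAAT occurred there at -77 and in 37.4% of all promoters. The STAT motif TTCNNNGAA, searched on both strands, had 0 matches in the 4 promoters and was present in 8.30% of all. The C/EBP motif TTGCNNAA likewise had 0 matches in the 4 and was present in 10.8% of all, and the C/EBP-ATF motif TGATGNAAT had 0 matches in the 4 and was present in 0.965%. These matches are a description of letters in short windows and say nothing about binding.

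Total counts were 12998168 to 16043022 in anti-Stat3 samples and 14676958 to 18683852 in control samples. Levels are given as CPM, counts scaled to a common library size with TMM normalization, and changes as log2 of anti-Stat3 over control siRNA. Anti-Stat3 and control samples that bear one replicate number varied together, and are called a pair. Stat3 itself had 34.7, 81.9 and 78.9 CPM in anti-Stat3 samples 1 to 3, against 220, 359 and 405 CPM in controls 1 to 3. Fibroblast markers were abundant, with 13 of 13 tested and a summed level of 47044 to 85104 CPM in anti-Stat3 samples, against 42034 to 112983 CPM in controls. All 17 macrophage markers in the table were tested. They summed to 43.8, 1732 and 2863 CPM in anti-Stat3 samples, against to 48.3, 1801 and 2483 CPM in controls, so pair 1 stood apart from pairs 2 and 3 within both groups. Epithelial or tumour cell markers, 15 of 18 tested, summed to 199, 974 and 68.7 CPM in anti-Stat3 samples, against 201, 951 and 66.6 CPM in controls, with Wap and Csn2 at 0 in all samples. Granulocyte markers, 3 of 9 tested, summed to 131, 53.9 and 1.46 CPM in anti-Stat3 samples, against 206, 98.9 and 4.20 CPM in controls. Endothelial markers summed to at most 39.6 CPM and T or B cell markers to at most 0.404 CPM in any sample. In such bulk samples, fewer cells of a type and less RNA per cell cannot be told apart.

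Of the 6 members, Cebpd was the most strongly lowered after anti-Stat3 siRNA, and it was the member that passed a test. Cebpb was lower and Ddit3 higher in each of the 3 pairs by smaller amounts that passed no test over all genes. Cebpa, Cebpg and Cebpz had smaller mean changes over the pairs, of -0.14, -0.12 and -0.05. That of Cebpa is uncertain, since its pairs ran from -0.45 to 0.17. In edgeR with the group alone, 0 of the 6 members passed an adjusted p of 0.05 (adjusted p = 1.00 for each). That fit called 0% of all tested genes and had 235 genes and 0 members at an unadjusted p under 0.05. With the pair as a block, edgeR called 0 members and 0.0602% of all tested genes. It had 3 members, Cebpb, Cebpd and Ddit3, at an unadjusted p under 0.05, where 10.8% of all genes were. DESeq2 with the group alone called 0 members and 0.128% of genes. DESeq2 with the pair as a block, called paired DESeq2 below, called 1 member lower and 0 higher, where 0.783% of all tested genes were called lower and 0.873% higher. The groups overlapped for all 6 members, whereas they did not for 4.67% of all tested genes. All 3 pairs were lower for 3 members (16.4% of all genes), Cebpb, Cebpd and Cebpg, of which Cebpg not with library total scaling, and higher for 1 (17.3%), Ddit3.

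**Figure D1:**
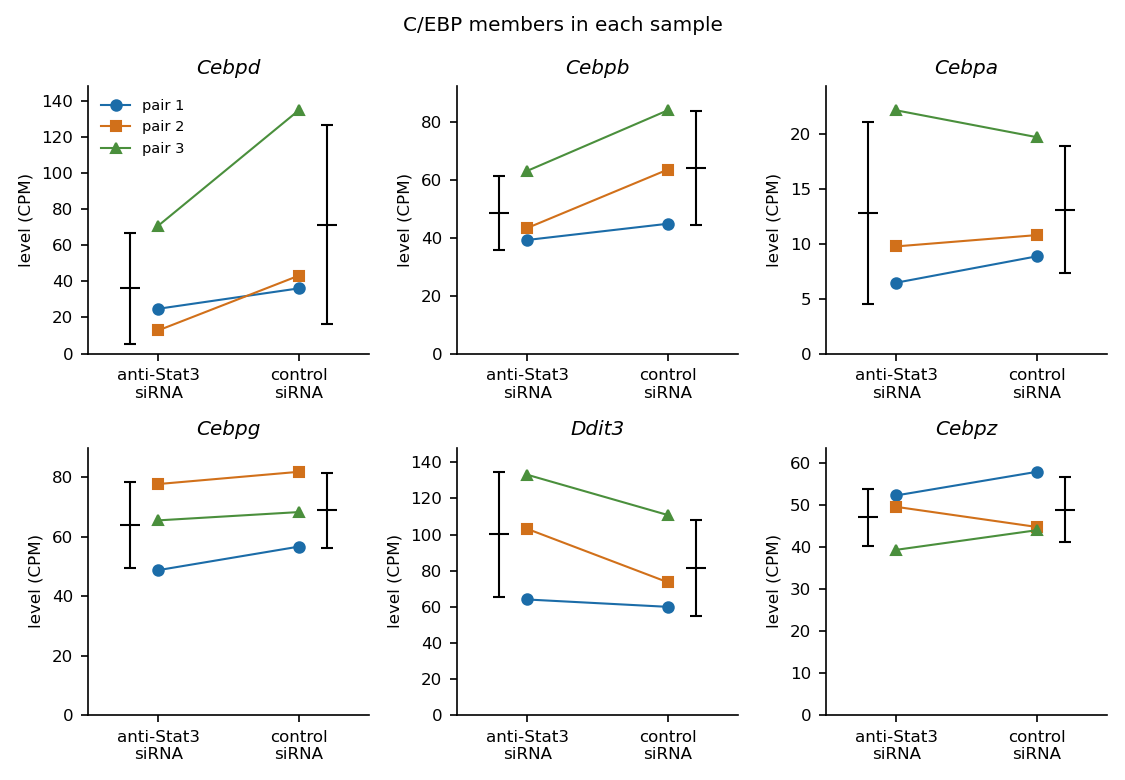
Level (CPM, linear axis from 0) of each member in the 6 samples, anti-Stat3 siRNA left of control siRNA. Coloured lines join the samples of a pair and black bars give the group mean and SD (n = 3). Cebpd and Cebpb lines are lower on the left in each pair and Ddit3 lines are higher.

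Cebpd, the member known as a direct STAT3 target, had 24.8, 12.8 and 70.7 CPM in anti-Stat3 samples 1 to 3, against 36.1, 43.1 and 135 CPM in controls 1 to 3. Each anti-Stat3 sample was below its own control. Anti-Stat3 sample 3 was nevertheless higher than controls 1 and 2, since pair 3 was high in both groups. Within pairs Cebpd retained 68.7%, 29.7% and 52.6% of the control level. The log2 changes of the pairs were -0.54, -1.74 and -0.93. Cebpd fell by 1.06 on the log2 scale in paired DESeq2 (SE 0.23, adjusted p = 0.00083), which leaves 47.9% of the control level. In edgeR with the pair as a block the change was -1.06 ± 0.21 (SE, adjusted p = 0.169), and in edgeR with the group alone it was -0.98 ± 0.76 (SE, adjusted p = 1.00). The paired DESeq2 call held without pair 1 (-1.32, adjusted p = 8.7e-06) and was lost without pair 2 (-0.74, adjusted p = 0.417) or pair 3 (-1.13, adjusted p = 0.251). Among the pairs left out, blocked edgeR called Cebpd without pair 1 (-1.31, adjusted p = 0.00080), and not without pair 2 (adjusted p = 0.571) or pair 3 (adjusted p = 1.00). With the group alone, the change was -0.13 without control sample 3, -0.59 without anti-Stat3 sample 2 and -1.93 without anti-Stat3 sample 3, each of which breaks a pair.

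The remaining Stat3 level, as a share of its control, was 15.8%, 22.8% and 19.5% in pairs 1 to 3. Pair 1 thus kept the lowest share of Stat3 and the highest share of Cebpd, while pair 2 kept the highest share of Stat3 and the lowest of Cebpd. Socs3, a feedback inhibitor that STAT3 induces, had pair changes of -1.20, -2.20 and -2.03, also smallest in pair 1. Il6, whose signal is known from other work to reach Cebpd through STAT3, had its highest levels in pair 1. These were 265 CPM in the anti-Stat3 sample and 525 CPM in the control, where Cebpd had 24.8 and 36.1 CPM. Whether the Cebpd change depends on the remaining Stat3 or on Il6 was not tested. Spidr, a DNA repair gene on the opposite strand, shares 562 exon bases with Cebpd in the GENCODE annotation of GRCm38. Spidr had pair changes of -0.12, -0.62 and -0.41 and did not pass in paired DESeq2 (-0.38 ± 0.19, SE, adjusted p = 0.543). The strand setting of the counting is not stated in the labels, and the part of this overlap in the Cebpd values was not tested.

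Cebpb, which encodes C/EBP-beta, an activator of Il6 and acute phase genes, had 39.3, 43.4 and 63.2 CPM in anti-Stat3 samples, against 44.9, 63.7 and 84.2 CPM in controls. Each anti-Stat3 sample lay below its own control, and the groups overlapped. The pair changes were -0.19, -0.55 and -0.41, a mean of -0.38 ± 0.18 (SD, n = 3 pairs). Cebpb did not pass in paired DESeq2 (-0.39 ± 0.15, SE, adjusted p = 0.267), where the 95% interval ran from -0.69 to -0.08, or in blocked edgeR (-0.39 ± 0.11, SE, adjusted p = 0.248). Its change stayed between -0.64 and -0.16 in all 22 alternatives, and none made it a call. Tmem189, which shares 312 exon bases with Cebpb on the opposite strand, had pair changes of 0.06, -0.02 and 0.16.

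The fall of Cebpd was larger than that of Cebpb within every pair. The ratio of Cebpd to Cebpb counts was 0.630, 0.295 and 1.12 in anti-Stat3 samples, against 0.803, 0.677 and 1.60 in controls. The log2 change of this ratio averaged -0.69 ± 0.45 (SD, n = 3 pairs). An exact permutation test over 3 pairs gave a two-sided p of 0.25, the smallest that 3 pairs allow, so the difference between these members could not pass.

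Cebpa, the C/EBP of mature fat cells and myeloid cells, was the lowest member, with 6.46, 9.77 and 22.2 CPM in anti-Stat3 samples, against 8.86, 10.8 and 19.7 CPM in controls. Its level followed the pairs more than the siRNA: it was lowest in pair 1 and highest in pair 3 in both groups. The same order held for the summed macrophage markers, and also for the summed fibroblast markers, Cebpb and Ddit3, so it was not particular to Cebpa. The part of macrophage RNA in Cebpa was not tested. The pair changes were -0.45, -0.14 and 0.17, with no common direction, and the paired DESeq2 change was -0.13 (95% interval -0.57 to 0.32, adjusted p = 1.00). Most adipocyte markers were hardly detected, with 1 of 7 tested, Fabp4, and Cidec and Lep at 0 in all samples. Adipocyte markers summed to 9.36 to 11.6 CPM in anti-Stat3 samples, against 13.1 to 14.3 CPM in controls. Cebpe, the granulocyte C/EBP, is not in the set and had 0, 0 and 2 counts in anti-Stat3 samples and 0, 0 and 1 in controls.

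Cebpg, the dimer partner without a strong activation domain, had 48.7, 77.7 and 65.4 CPM in anti-Stat3 samples, against 56.6, 81.8 and 68.2 CPM in controls. It was lower in each pair, with changes of -0.22, -0.07 and -0.06. Scaled by library totals alone, the change in pair 3 was 0.01, so its sign there depended on the scaling. The paired DESeq2 change of -0.11 had a 95% interval of -0.39 to 0.16 (adjusted p = 1.00), so a fall as large as that of Cebpd lies outside it.

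Ddit3 (CHOP), the stress-induced member, had 64.0, 103 and 133 CPM in anti-Stat3 samples, against 59.9, 73.6 and 111 CPM in controls. Each anti-Stat3 sample was above its own control and the groups overlapped. The pair changes were 0.09, 0.49 and 0.26, a mean of 0.28 ± 0.20 (SD, n = 3 pairs). Ddit3 did not pass in paired DESeq2 (0.29 ± 0.15, SE, adjusted p = 0.649) or in blocked edgeR (0.28 ± 0.11, SE, adjusted p = 0.424). The methionyl tRNA synthetase gene Mars, which shares 68 exon bases with Ddit3 on the opposite strand, had pair changes of 0.04, -0.04 and -0.01.

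Cebpz, the member linked to ribosome assembly through yeast Noc1, had 52.2, 49.5 and 39.3 CPM in anti-Stat3 samples, against 57.8, 44.7 and 43.9 CPM in controls. Its pair changes of -0.15, 0.15 and -0.16 had no common direction. The paired DESeq2 change was -0.05 (95% interval -0.36 to 0.26, adjusted p = 1.00). Cebpzos, on the opposite strand with 171 shared exon bases, had 6.13 to 7.67 CPM in anti-Stat3 samples, against 6.30 to 7.36 CPM in controls.

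**Figure D2:**
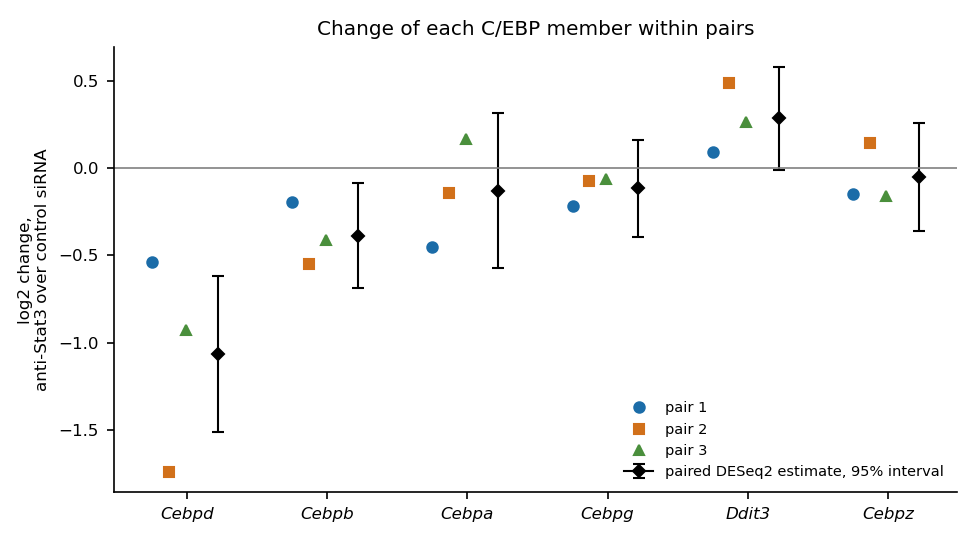
Log2 change of anti-Stat3 over control siRNA for each member. Coloured symbols are the 3 pairs and black diamonds the paired DESeq2 estimates with 95% intervals. Cebpd has the lowest estimate, -1.06, and the intervals of Cebpa, Cebpg, Ddit3 and Cebpz include 0.

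Levels were compared between members per kilobase of exon (CPM per kb, GENCODE exon union). Ddit3 had 58.4 ± 20.2 CPM per kb after anti-Stat3 siRNA and 47.5 ± 15.4 with control siRNA, and Cebpb had 32.4 ± 8.50 after anti-Stat3 siRNA and 42.7 ± 13.1 with control siRNA (SD, n = 3 each). These were the highest members in both groups, and in controls they lay within their spread of each other. Cebpd had 9.64 ± 8.17 CPM per kb after anti-Stat3 siRNA and 19.02 ± 14.7 with control siRNA. Cebpg had 11.4 ± 2.59 CPM per kb in anti-Stat3 samples and 12.3 ± 2.24 in controls, and Cebpz had 10.1 ± 1.46 in anti-Stat3 samples and 10.5 ± 1.68 in controls. Cebpa was the lowest, with 4.86 ± 3.14 CPM per kb in anti-Stat3 samples and 4.98 ± 2.20 in controls. Cebpd was therefore the third member in order of mean level in controls and the fifth after anti-Stat3 siRNA, but it did not differ from Cebpg and Cebpz beyond its spread in either group. With the shorter RefSeq length of 2260 bases in place of 3746, an alternative added after seeing the data, Cebpd had 16.0 CPM per kb in anti-Stat3 samples and 31.5 in controls and was the third in both groups.

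As a share of the summed level per length of the 6 members, Cebpd made up 7.15%, 2.83% and 11.3% in anti-Stat3 samples, against 9.59%, 9.20% and 19.4% in controls. Cebpb made up 28.3%, 23.9% and 25.2% in anti-Stat3 samples, against 29.8%, 33.9% and 30.1% in controls. Ddit3 made up 40.4%, 49.9% and 46.5% in anti-Stat3 samples, against 34.9%, 34.4% and 34.8% in controls. The Ddit3 share was thus higher in every anti-Stat3 sample than in every control, and the Cebpb share lower. The CPM levels of both genes overlapped between the groups. Levels did not overlap for 4.67% of all tested genes, and no such background was computed for shares within a set. With the RefSeq length of Cebpd the Ddit3 shares still did not overlap between the groups, but the Cebpb shares did, with 27.0% in anti-Stat3 sample 1 against 26.7% in control 3. A share moves with the other members, so the Ddit3 and Cebpb separations are not independent. A lower Cebpd and Cebpb raise the Ddit3 share, and the Ddit3 level was itself higher in each pair. Transcript shares do not give those of the proteins.

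**Figure D3:**
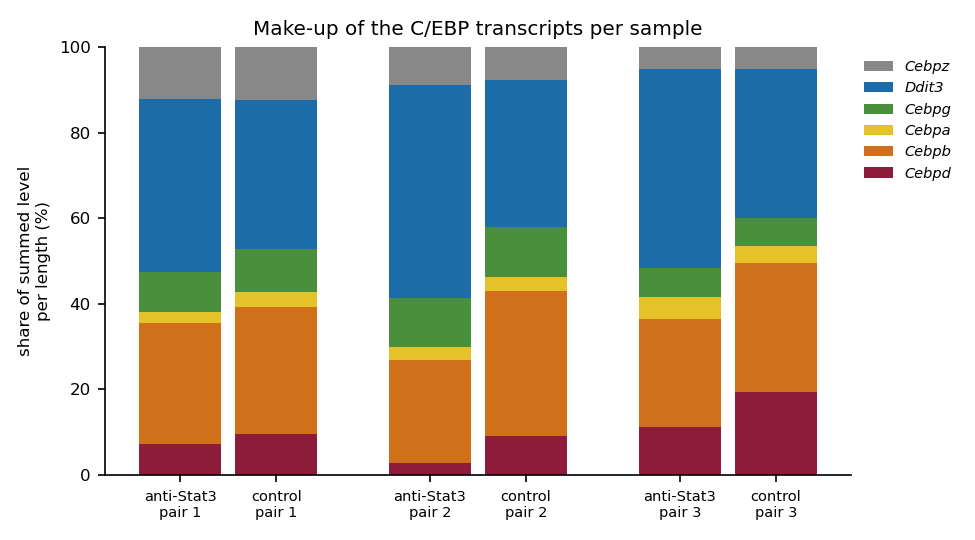
Share (%) of each member in the summed level per length of the 6 members, per sample, with the anti-Stat3 sample left of its control in each pair. The Cebpd band is narrower and the Ddit3 band wider in the anti-Stat3 sample of each pair.

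Genes that work with the C/EBP proteins, or that they control, were described by lists. The lists were chosen with earlier results of these data known, so their counts are not independent evidence. Known targets of C/EBP-beta or C/EBP-delta were mostly lower, with 27 of 30 tested. In paired DESeq2 9 fell, 0 rose and 18 did not pass, where 0.783% of all tested genes fell. In blocked edgeR 0 of the 27 passed, though 20 had an unadjusted p under 0.05, against 10.8% of all genes. The median change was -0.84 in paired DESeq2, against -0.0040 over all tested genes, and the pair medians were -0.40, -0.80 and -1.27. The change was below 0 in every pair for 18 targets and above 0 in every pair for 2. Over all tested genes, these shares were 16.4% and 17.3%. The paired DESeq2 count was 13 without pair 1, 5 without pair 2 and 3 without pair 3, where 1.17%, 0.09% and 0.0958% of all genes were called lower. In blocked edgeR it was 15, 1 and 0, where 2.18%, 0.0225% and 0% of all genes were. Many of these genes are also known targets of STAT3 or NF-kB, so the list does not separate those factors from C/EBP. Granulocyte markers, 3 of 9 tested, were also lower in each pair in their summed level given above, with Elane, Ngp and Cebpe at 3 counts or fewer in every sample, and their part in these values was not tested.

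The 9 targets that fell were Mmp3, Mmp13, Lbp, Il33, Il6, C3, Cxcl1, Lcn2 and Sod2, with changes from -1.85 to -0.51. Lcn2, lipocalin 2, an iron-scavenging acute phase protein, had 164, 720 and 16.4 CPM in anti-Stat3 samples, against 230, 1069 and 29.8 CPM in controls. Its level differed far more between pairs than within them, and it fell by 0.62 ± 0.14 on the log2 scale (SE, paired DESeq2 adjusted p = 0.0019). Sod2, the mitochondrial superoxide dismutase, had 86.0, 73.4 and 56.9 CPM in anti-Stat3 samples, against 103, 112 and 90.5 CPM in controls, with no overlap between the groups. Sod2 fell by 0.51 ± 0.15 (SE, adjusted p = 0.048).

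Hp, Saa3 and Serpina3n had still lower estimates than these 9 and did not pass, and in all 3 the change was smallest in pair 1. Hp, haptoglobin, had 8.59, 2.16 and 0.844 CPM in anti-Stat3 samples, against 11.4, 16.7 and 18.2 CPM in controls, a paired DESeq2 change of -2.62 ± 0.99 (SE, adjusted p = 0.203). Saa3, serum amyloid A3, had 299.6, 30.4 and 5.22 CPM in anti-Stat3 samples, against 368, 193 and 106 CPM in controls, a change of -2.46 ± 1.03 (SE, adjusted p = 0.328). Their pair changes were -0.40, -2.88 and -4.24 for Hp and -0.29, -2.66 and -4.31 for Saa3. Pair 2 had the largest fall of Cebpd and pair 3 the largest of Hp and Saa3. At the other end of the list, Ccl2, the monocyte chemokine, had 1877, 838 and 351 CPM in anti-Stat3 samples, against 2062, 231 and 262 CPM in controls, with pair changes of different sign and a change of 0.70 that did not pass (adjusted p = 0.969).

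**Figure D4:**
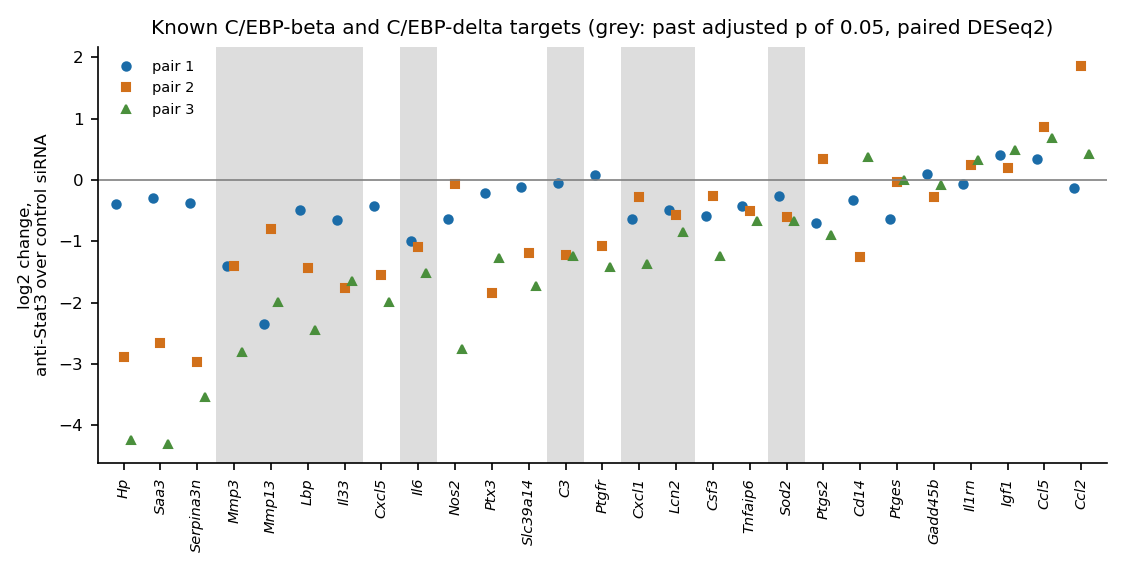
Log2 change in each pair for the 27 tested C/EBP-beta or C/EBP-delta targets, ordered by their paired DESeq2 estimate, with the 9 that passed shaded grey. Pairs 2 and 3 lie far below pair 1 for Hp, Saa3 and Serpina3n.

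Partners and regulators of C/EBP proteins had 19 of 20 tested and a median of -0.10 in paired DESeq2, where 1 rose and 0 fell, against 0.873% of all tested genes called higher. The gene that rose was Batf2, an interferon-induced leucine zipper factor, with 1.88, 11.99 and 9.97 CPM in anti-Stat3 samples, against 1.01, 0.318 and 0.300 CPM in controls (3.88 ± 1.15, SE, adjusted p = 0.047). Controls 2 and 3 held 6 and 5 counts of Batf2, so few that its fold is imprecise. Batf2 did not pass in blocked edgeR (adjusted p = 0.164), and without pair 2 or pair 3 paired DESeq2 called 0 genes of this list. All 3 pairs were lower for 8 of the 19 and higher for 2, where over all tested genes these shares were 16.4% and 17.3%. In blocked edgeR 5 of the 19 had an unadjusted p under 0.05, where 10.8% of all tested genes did. Nfil3, a leucine zipper repressor, had 22.4, 26.6 and 45.4 CPM in anti-Stat3 samples, against 25.1, 46.5 and 68.5 CPM in controls, and did not pass (-0.52, adjusted p = 0.148). Fos, the AP-1 subunit, had a change of -0.56 (adjusted p = 0.196) and Hlf of -0.70 (adjusted p = 0.339) in paired DESeq2. Atf4, the partner of C/EBP-gamma and inducer of Ddit3, had 298, 344 and 456 CPM in anti-Stat3 samples, against 335, 358 and 410 CPM in controls, with a change of -0.02 (adjusted p = 1.00).

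Genes of the ATF4 and CHOP stress response, the setting in which Ddit3 is induced, had no common direction. All 42 were tested, with a median of 0.01 in paired DESeq2. In that fit 1 fell and 0 rose, where 0.783% of all tested genes fell and 0.873% rose. All 3 pairs were lower for 10 of the 42 and higher for 7, where over all tested genes these shares were 16.4% and 17.3%. Ddit4, an inhibitor of mTOR signalling that also responds to hypoxia, fell by 0.74 ± 0.15 (SE, adjusted p = 5.3e-04), with 69.2, 106 and 123 CPM in anti-Stat3 samples, against 94.0, 198 and 224 CPM in controls. Ddit4 did not pass in blocked edgeR (adjusted p = 0.153), and without pair 2 or pair 3 paired DESeq2 called 0 genes of this list. Bbc3, which encodes the death-promoting protein PUMA, had 9.40, 11.99 and 23.2 CPM in anti-Stat3 samples, against 6.90, 6.72 and 15.0 CPM in controls, and did not pass (0.64 ± 0.22, SE, adjusted p = 0.125). Ero1l, an oxidase of the endoplasmic reticulum induced by CHOP, had a change of -0.43 (adjusted p = 0.053), and Ppp1r15a, another CHOP target, of -0.31 (adjusted p = 0.486). Chac1, Trib3 and Asns, textbook targets of this response named after their values were seen, had changes of -0.04, -0.10 and 0.01.

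Adipocyte genes, which C/EBP-alpha and PPAR-gamma control, had 13 of 22 tested and a median of 0.05 in paired DESeq2. That fit called 0 of them, where 0.783% of all tested genes fell and 0.873% rose. Without pair 1, both blocked fits called 1 lower, against 1.17% of all genes in paired DESeq2 and 2.18% in blocked edgeR. With all pairs, 3 of the 13 had an unadjusted p under 0.05 in blocked edgeR, where 10.8% of all tested genes did. The smallest p in that fit belonged to Dgat2, a triglyceride synthesis enzyme, with a change of -0.91 (paired DESeq2 adjusted p = 0.152), then Cd36, Fabp4 and Pnpla2. Of 16 early regulators of fat cell formation, 16 were tested and 1 rose in paired DESeq2, where 0.873% of all tested genes did. This was Wisp2, a secreted inhibitor of fat cell commitment, with 766, 228 and 541 CPM in anti-Stat3 samples, against 504, 183 and 369 CPM in controls (0.49 ± 0.13, SE, adjusted p = 0.017). Wisp2 did not pass in blocked edgeR (adjusted p = 0.193), and its paired DESeq2 call was lost without pair 2 or pair 3. Klf4, which activates Cebpb early in fat cell formation, had 37.5, 43.0 and 75.3 CPM in anti-Stat3 samples, against 31.9, 22.7 and 49.6 CPM in controls, and did not pass (0.59 ± 0.18, SE, adjusted p = 0.078). Klf4 was higher and Cebpb lower in each pair. Gata2 and Klf2 had changes of -0.33 and 0.27 and did not pass.

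Genes of nucleolar ribosome assembly, listed for Cebpz, had 26 of 27 tested and a median of 0.05 in paired DESeq2. That fit called 0 of them, where 0.783% of all tested genes fell and 0.873% rose. In blocked edgeR 1 of the 26 had an unadjusted p under 0.05, Rrp1b (-0.36), where 10.8% of all tested genes did. Fbl, Wdr12 and Bop1 followed with changes of 0.34, 0.24 and 0.18. For signalling by the IL-6 family, 19 of 19 genes were tested, with a median of -0.06. In paired DESeq2 4 fell and 0 rose, where 0.783% of all tested genes fell and 0.873% rose. The genes that fell were Stat3 itself, which is the target of the siRNA, Socs3, Il6 and Osmr, a receptor subunit for oncostatin M. Il6 was also among the C/EBP targets that fell. Blocked edgeR called Stat3 and Socs3, where 0.0602% of all tested genes were called. Without pairs 1, 2 and 3 in turn, paired DESeq2 called 5, 3 and 3 genes lower, where 1.17%, 0.09% and 0.0958% of all genes were. Blocked edgeR then called 5, 1 and 0 lower, where 2.18%, 0.0225% and 0% of all genes were.

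**Figure D5:**
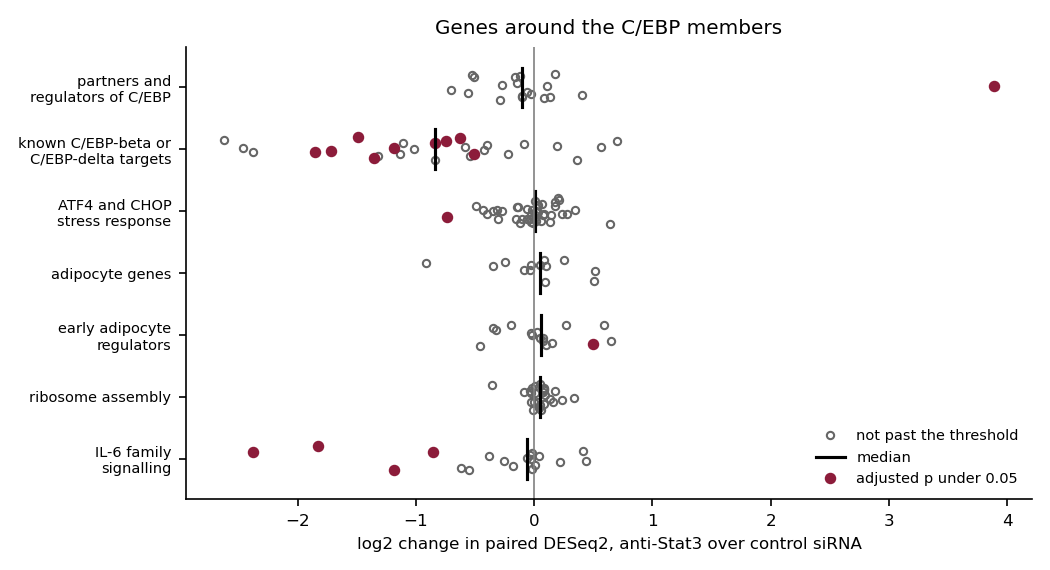
Paired DESeq2 log2 change of every tested gene of the 7 lists. Filled circles passed an adjusted p of 0.05 and vertical bars are list medians. The median of the known C/EBP-beta or C/EBP-delta targets is -0.84 and those of the other lists lie between -0.10 and 0.06.

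The likeness of other genes to each member was measured as the root mean square difference of log2 CPM over the 6 samples after centring, among 11912 other genes whose log2 CPM averaged 1 or more. Cebpd, the member with the widest spread on this scale, had 0 genes within 0.2 of it. Its nearest genes were Gm6484, at 0.281, Mterfd2, at 0.322, and the metallothionein Mt1, which binds metal ions, at 0.327. The pair changes of Mt1 were -0.93, -1.06 and -1.33, and both blocked fits called it lower (paired DESeq2 adjusted p = 7.3e-10, edgeR 0.039). The likeness rule uses the difference between the groups too, so a gene near Cebpd tends to be lower by choice. These calls are therefore not independent evidence. Cebpb had 272 genes within 0.2, and the nearest were Pgbd1, at 0.0803, Adcy3, an adenylate cyclase, at 0.0834, and Tnfrsf1a, the main receptor for TNF, at 0.0851. Ddit3 had 106, with Acly, the enzyme that makes acetyl-CoA from citrate, nearest at 0.0875, then Jade2 and Aacs. Cebpa had 12, with Sh3rf3, Hspb7 and Coro2b nearest, at 0.149 to 0.160. Cebpg had 942, led by Deb1, Arhgef7 and Sin3a, and Cebpz 2353, led by Ppid, Heatr1 and Eif5. A member that hardly varies has many near genes, so these numbers follow its spread, which was an SD of 1.17 for Cebpd and 0.199 for Cebpz on the log2 scale over the 6 samples.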

How the data were processed

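RNA was extracted from the CAFs with TRIzol, poly(A)-selected and made into TruSeq libraries, per the labels' protocols. TopHat2 2.0.10, HTSeq and build mm9 are named in the submitters' processing notes. Raw counts for 24015 gene symbols in 6 columns were deposited by the authors, and 0 per-sample columns were left unused. Columns write "sh" where sample titles write "si" and were matched by group and number. Total counts were 12998168 to 18683852 per sample. The limit that 0 counts allow is 3 counts, at most 0.230 CPM in these libraries (counting error only). Strand use in counting is not given in the labels.

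The main test was the quasi-likelihood test of edgeR 4.0.16 in R 4.3.3 (TMM, filterByExpr with min.count 10 and min.total.count 15, group as the only term, Benjamini-Hochberg over 13284 genes, threshold 0.05). DESeq2 1.42.0, replicate blocks, RLE scaling, no filter, a batch term and left-out samples or pairs were alternatives. The batch term set replicate 3 apart from replicates 1 and 2, by the naming scheme of the sample descriptions. It is a coarser form of the replicate block, and no processing batch is stated. Log2 CPM used a prior count of 2. Titles number samples 1 to 3 in both groups, and across genes, same-numbered samples had deviations from their group means that correlated at 0.83, 0.82 and 0.83, where other combinations gave -0.16 or below. On this ground the numbers were treated as pairs. What a number shares is not given. Levels differed widely between the numbers within a group, with summed macrophage markers of 48.3, 1801 and 2483 CPM in controls 1 to 3. The replicates may still be separate cultures of cells from the same mice, in which case the p-values do not cover the spread between mice. Fits were also run on data simulated with pair means and with spread estimated under the replicate block, and no result here rests on that run. Exon lengths and overlaps came from GENCODE M21 (GRCm38), another build than the counts.

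Members and lists were chosen with earlier results of these data known. Named genes were the members, Stat3, the 4 genes of each list with the smallest p in blocked edgeR, genes called in a blocked fit, and the 3 genes most like each member. Genes that overlap a member, the list genes with the lowest and highest estimates, Saa3, Serpina3n, Chac1, Trib3, Asns and Atf4 were named after their values were seen.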

Additional observations from a re-analysis of the deposited data

How the results depend on the processing

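The number of genes called depended on the fit: 0 in edgeR with the group alone, 8 with the replicate block (8 also with RLE scaling and the block), 17 in DESeq2 with the group alone and 220 in DESeq2 with the block. Leaving out samples or pairs gave 0 to 703, the highest without pair 1 in blocked edgeR, and 40 with the group alone without control sample 1. Cebpd became a call in DESeq2 with the block (-1.06), and its change ranged from -1.93 to -0.13 with samples or pairs left out, the calls among them being those without pair 1. Cebpb ranged from -0.64 to -0.16 and Ddit3 from 0.03 to 0.59 over such alternatives, with no change of sign and no call. Cebpa ranged from -0.70 to 0.38, Cebpg from -0.28 to 0.055 and Cebpz from -0.16 to 0.081. The sign of Cebpa turned in 6 of 22 alternatives, of Cebpg in 2 and of Cebpz in 5, all with samples or pairs left out. RLE scaling, no filter and the batch term changed no sign and no call of a member. The median log2 change of all genes lay between -0.0063 and 0.018 under TMM, RLE and library total scaling.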
